A study of Mus musculus with 37 samples.

Results

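The genes examined here encode the subunits of the mitochondrial respiratory chain and of ATP synthase, followed across 9 components of the developing mouse kidney. Members were chosen by symbol alone, as genes whose names start with Nduf, Uqcr, Atp5 or Cox4 to Cox8, together with Sdha, Sdhb, Sdhc and Sdhd. The array had a probe set of a single gene for 90 such genes among 18193 genes in all. Of these, 88 of the 15709 genes that passed the filter on low values were members, and the counts below are over those 88. They were 6 core subunits, 28 accessory subunits and 8 assembly factors of complex I, 4 subunits of complex II, 8 of complex III, 11 of complex IV and 17 of complex V, plus 6 isoforms known from particular tissues. The 2 members that did not pass were Cox7b2, between 5.31 and 7.58 on the log2 scale over the 37 arrays, and Cox8b, between 5.38 and 8.31. A further 8 names of the same kind, Ndufs6 and Ndufa11 among them, were matched only by probe sets shared between genes, and Cox7b was not analysed here.

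The samples were wild-type CD-1 tissue from 3 embryonic days, with 1 array each. At E11.5 they were 4 of the ureteric bud, whose branches later form the collecting ducts, and 8 of the metanephric mesenchyme around it. At E12.5 they were 5 of the renal vesicle, in which mesenchyme has turned into an early nephron epithelium. At E15.5 they were 2 of the early proximal tubule, 4 of the medullary interstitium, 4 of the renal corpuscle, 4 of the S-shaped body, 3 of the ureteric tip and 3 of the medullary collecting duct. Each sample pooled about 50 sections from 5 kidneys, and its RNA went through 2 rounds of amplification. All are described as laser captured, but the sample titles of all 4 buds and of 4 of the 8 mesenchymes name dissection or collagenase instead, those of 3 mesenchymes name laser capture, and that of 1 names no method. Nothing in the labels says which kidneys lay behind which pool, so p-values may measure only the spread between pools or between amplifications. In tissue of this kind, fewer cells of a type and less RNA per cell cannot be told apart.

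Complex I takes electrons from NADH and complex II from succinate, complex III passes them on to cytochrome c, complex IV hands them to oxygen, and complex V uses the resulting proton gradient to make ATP. Most subunits are encoded in the nucleus, as are all the genes described here, and complex IV exchanges some of its small subunits for isoforms that are typical of muscle, testis, lung or tissue short of oxygen. The mature proximal tubule is rich in mitochondria and burns mainly fatty acids to drive reabsorption.

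Arrays carried the tissue their labels name, with exceptions. The summed signal of 12 proximal tubule markers was 158179 and 288975 in the proximal tubule, against at most 88030.8 in any array of the other components, and that highest other array was replicate 3 of the S-shaped body. In proximal tubule replicate 2 the nephron progenitor gene Six2 reached 13.09 and the ureteric tip gene Ret 11.33 on the log2 scale, against 8.52 and 5.41 in replicate 1. The most similar other array came from the same component for 29 of the 37 arrays. Array medians lay between 126.78 and 333.89. The log2 ratio of 5′ to 3′ signal for Actb, a measure of transcript length, averaged -4.01 in the proximal tubule, -3.70 in the bud, -4.10 in the mesenchyme and -4.08 in the renal vesicle, against -2.55 to -1.84 in the other E15.5 components. The Gapdh ratio gave another order, with the bud highest at -3.08, the tip at -4.77 and the proximal tubule lowest at -5.45. With the Actb ratio as a covariate the counts of called members given below became 12 in place of 23, 7 in place of 11 and 4 in place of 18 for the proximal tubule against other components, the proximal tubule against the S-shaped body and the ureteric tip against the bud. With the Gapdh ratio they were 18, 11 and 13 in the same order. The share of all genes called with these covariates is not given, so the changes need not be particular to the members.

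Over the 9 components, 56 of the 88 members (63.6%) differed by a moderated F test in limma at a Benjamini-Hochberg adjusted p under 0.05, against 49.9% of all genes tested. The complexes were unequal in this. The test called 10 of 11 complex IV genes, 6 of 8 of complex III, 20 of 28 accessory and 4 of 6 core genes of complex I and 10 of 17 of complex V. It called 2 of 8 assembly factors, 1 of 4 complex II genes and 3 of 6 tissue-restricted isoforms. Variation within a complex was wide. The range of a gene's 9 component means on the log2 scale ran from 0.26 for Atp5c1, the central stalk subunit of ATP synthase, to 2.84 for Atp5md, a small subunit of the same complex. In complex I it was 0.48 for Ndufs3 and 1.93 for Ndufs7 among core subunits, 0.43 for Ndufc2 and 2.01 for Ndufv3 among accessory subunits, and 0.80 for Ndufaf8 and 2.86 for Ndufaf4 among assembly factors. In complex II it was 0.62 for Sdha and 2.47 for Sdhd, in complex III 0.42 for Uqcrb and 2.63 for Uqcr11, and in complex IV 0.59 for Cox7a2 and 2.22 for Cox7c. The restricted isoforms ran from 1.06 for Cox6b2 to 4.21 for Cox7a1.

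The highest of the 9 component means fell in the proximal tubule for 46 of the 88 members, and the lowest in the ureteric bud for 42. These counts were not made over all genes, so they cannot be set against a background. The tubule mean also rests on 2 arrays, fewer than that of any other component. To describe a complex as a whole, each gene's log2 value was set relative to its mean over the 9 components and averaged over the complex, which gives a relative log2 level with no test. Complex III stood highest in the proximal tubule, at 0.67 and 0.81 in its 2 arrays, and its highest value in any other array was 0.40, in medullary interstitium replicate 1. Complex V was at 0.45 and 0.53 in the proximal tubule, with 0.31 as the highest value elsewhere. Both complexes therefore had no array of another component at the level of the tubule.

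For the other groups of genes the 2 tubule arrays lay further apart. Core subunits of complex I were at 0.43 and 0.71 in the proximal tubule, both above the highest other array, metanephric mesenchyme replicate 4 at 0.32. Complex I accessory subunits were at 0.29 and 0.59, with medullary interstitium replicate 1 also at 0.29. The broadly expressed subunits of complex IV were at 0.08 and 0.60, so for these tubule replicate 2 lay among the other components. Complex II was at -0.36 and 0.61 in the tubule and highest in the medullary collecting duct, at 0.32 ± 0.43 (SD, n = 3). Assembly factors showed no order that exceeded the spread between arrays.

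At the other end, all broadly expressed members together averaged -0.36 ± 0.16 (SD, n = 4) in the ureteric bud and -0.21 ± 0.21 (SD, n = 8) in the mesenchyme. Within the mesenchyme the level differed with the collection method in the titles, at -0.57 to -0.23 in the 4 arrays of dissection or collagenase and -0.15 to 0.06 in the 3 of laser capture. Those 4 arrays averaged -0.38, so the bud at -0.36 was not below mesenchyme whose titles name the same methods. The first place of the proximal tubule held for core and accessory complex I, complexes III, IV and V and the restricted isoforms under quantile normalization, under the deposited scaling alone and with each array centred on its median. The last place of the ureteric bud did not: with median centring the lowest level of all broadly expressed members was -0.49, in the ureteric tip. For complex II the tubule came first with the deposited scaling, at 0.39, and with median centring, at 0.51, but not with quantile normalization.

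**Figure D1:**
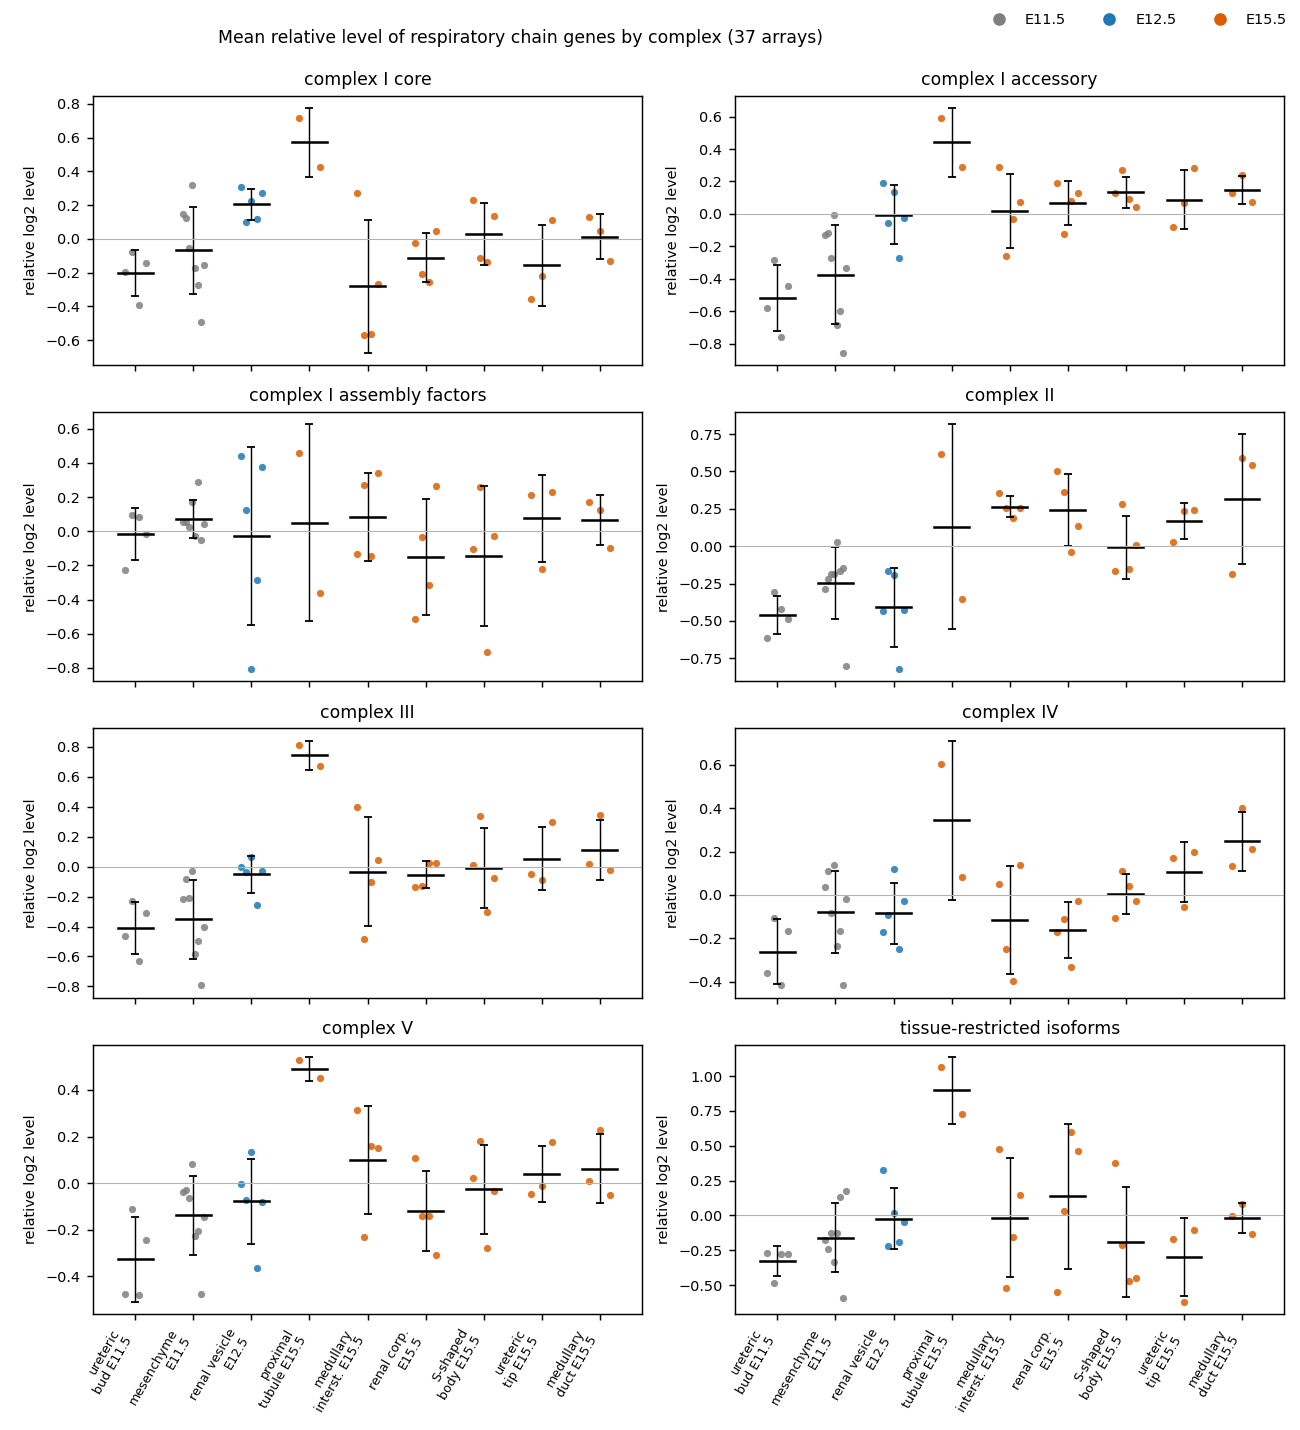
Relative log2 level of each group of respiratory chain genes (vertical axis) in 37 arrays of 9 components, ordered by embryonic day; points are arrays, bars the component mean and SD. The proximal tubule stands above the rest most clearly for complex III (0.67 and 0.81) and complex V (0.45 and 0.53), while its 2 arrays lie far apart for complex II (-0.36 and 0.61).

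**Figure D2:**
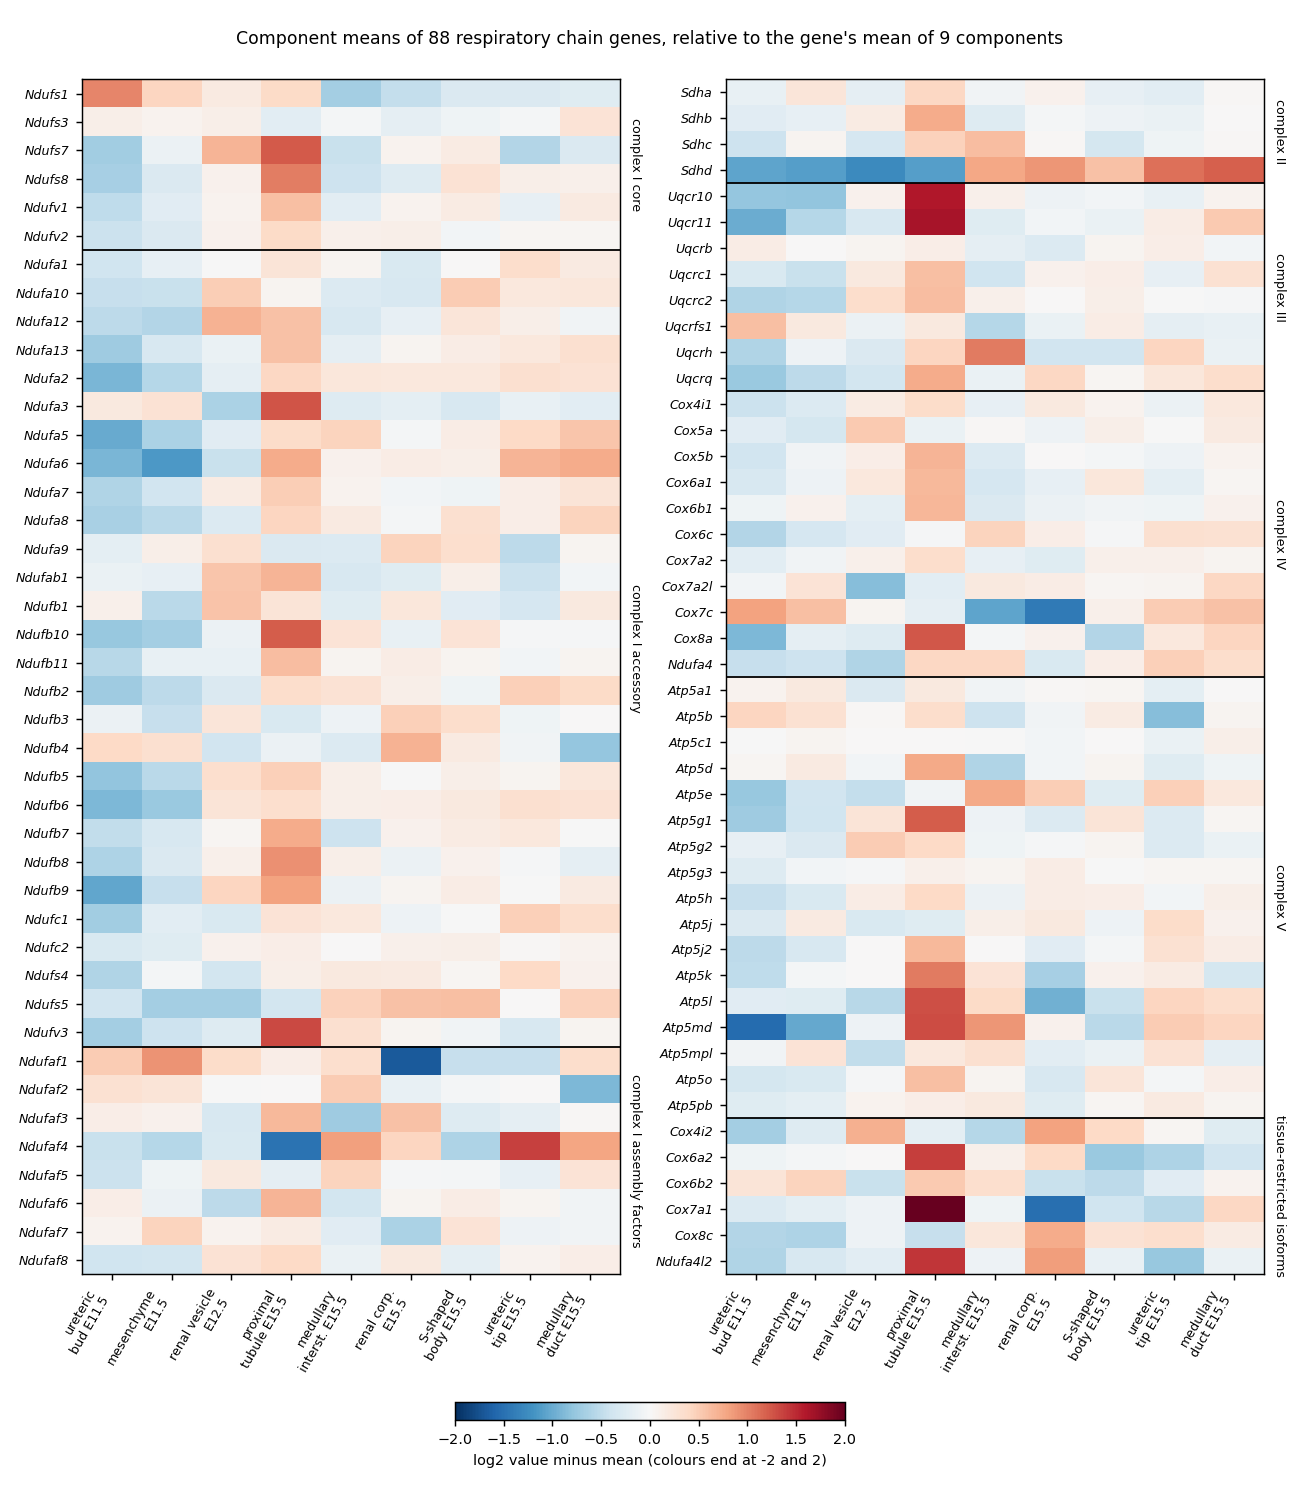
Mean log2 value of each of 88 genes in each of 9 components, relative to the gene's mean over the 9; red is above and blue below that mean. The proximal tubule column holds the highest mean of 46 genes and the ureteric bud column the lowest of 42, counts that were not made over all genes. Sdhd, Ndufaf4 and Cox7c depart from the rest of their complexes. Under median centring the last place of the bud goes to other components.

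The proximal tubule was then compared with the mean of the other 5 components of its day. A gene is said to have risen or fallen where limma gave a Benjamini-Hochberg adjusted p under 0.05 over all 15709 genes. By that measure 23 of 88 members changed (26.1%), against 16.1% of all genes; 21 rose, against 9.45% of all genes, and 2 fell, against 6.66%. The median log2 fold change was 0.39 for the members and 0.11 for all genes. Both tubule arrays lay above all 18 other E15.5 arrays for 19 members, as they did for 5.77% of all genes, and below them for 1. Macrophage markers also moved with the tubule: 1 of 5 rose, Csf1r, with a list median of 1.54. Their summed signal was 11739 and 38667 in the tubule, against at most 24021.5 in any other E15.5 array, and their part in the result was not tested.

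In complex I, 2 of 6 core subunits rose, the iron-sulfur proteins Ndufs7 and Ndufs8. Ndufs7 was at 15.43 and 15.17 in the proximal tubule, against a lowest, median and highest value of 13.01, 14.02 and 14.66 over the 18 other E15.5 arrays. The groups did not overlap, and the log2 difference was 1.45 ± 0.35 (SE; adjusted p = 0.00341). Ndufs8 rose by 1.06 ± 0.32 (adjusted p = 0.0218). Among accessory subunits, which surround the core, 6 of 28 rose, from Ndufb11 at 0.56 to Ndufa3 at 1.48 ± 0.37 (adjusted p = 0.00495). Ndufa3 had 14.16 and 13.96 in the tubule, against 11.49, 12.62 and 13.07 over the other arrays. Its groups did not overlap, but the probe set of largest variance gave a difference of -0.26.

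All 8 complex III genes lay above 0, as did 54.7% of all genes, and 2 of the 8 rose. These were Uqcr10 and Uqcr11, small subunits of the cytochrome bc1 complex. Uqcr10 was at 13.19 and 13.25 in the proximal tubule, against 10.65, 11.52 and 13.11 as the lowest, median and highest of the other arrays. Only medullary interstitium replicate 1, at 13.11, came near the tubule, and the difference was 1.62 ± 0.43 (adjusted p = 0.00746). Uqcr11 was at 14.35 and 14.88 in the tubule, against 11.61, 12.96 and 13.77 elsewhere, again without overlap. Its difference was 1.59 ± 0.36 (adjusted p = 0.00205).

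In complex IV, 4 of 11 broadly expressed genes rose, Cox5b, Cox6a1, Cox6b1 and Cox8a. Cox6a1, a regulatory subunit, was at 16.45 and 16.20 in the proximal tubule, against 14.99, 15.66 and 16.06 over the other arrays. It did not overlap, and rose by 0.73 ± 0.15 (adjusted p = 0.000786). Cox6b1, which lies on the side of the intermembrane space, was at 16.21 and 16.55 against a highest other value of 16.05, a rise of 0.76 ± 0.18 (adjusted p = 0.00332). In complex V, 3 of 17 genes rose: Atp5g1, of the membrane ring, by 1.29, Atp5k, subunit e, by 1.14, and Atp5d, the delta subunit of the central stalk, by 0.94. In complex II only the iron-sulfur subunit Sdhb rose, with 15.24 and 15.38 in the proximal tubule against 13.97, 14.48 and 14.72 elsewhere, by 0.85 ± 0.26 (adjusted p = 0.0219).

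Of the subunit chosen to stand for each complex, none was called in this comparison. Ndufs1, an iron-sulfur subunit of complex I, was at 14.43 and 12.91 in the proximal tubule, against 12.02, 12.81 and 13.56 over the other arrays (0.78, adjusted p = 0.178). After quantile normalization its highest mean over the 9 components was in the ureteric bud, 0.98 above its own average. Uqcrc1, a core protein of complex III, was at 14.46 and 14.78, against 12.97, 14.14 and 14.54 (0.60, adjusted p = 0.177). Sdha, the flavoprotein of complex II, differed by 0.48 (adjusted p = 0.135), Atp5b by 0.58 (adjusted p = 0.128) and Cox5a by -0.18 (adjusted p = 0.697).

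The 2 members that fell were Sdhd, the membrane anchor of complex II, and the assembly factor Ndufaf4. Sdhd was at 13.88 and 11.39 in the proximal tubule, against 13.75, 14.61 and 15.57 over the other arrays, a difference of -2.02 ± 0.41 (adjusted p = 0.000555). The 2 tubule arrays thus differed from each other by more than the groups did, and replicate 1 lay inside the range of the rest. A second probe set of Sdhd gave 0.63, of opposite sign. Sdhd was also no longer called with the Actb ratio as a covariate. Ndufaf4 was at 11.53 and 11.06, against 11.03, 13.15 and 14.66, and fell by 2.04 ± 0.50 (adjusted p = 0.00362). It overlapped with the other E15.5 components through S-shaped body replicate 1, at 11.03.

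The largest rise belonged to an isoform known from another tissue. Of 6 measured, 3 rose: Cox7a1 and Cox6a2, the heart and skeletal muscle forms of complex IV subunits, and Ndufa4l2, a relative of the complex IV subunit Ndufa4 that is known to be induced by low oxygen. Cox7a1 was at 10.74 and 10.61 in the proximal tubule, against 5.61, 7.56 and 8.86 over the 18 other arrays. Among all 37 arrays only renal vesicle replicate 1, at 9.94, came within 1 unit of the tubule. The difference was 3.13 ± 0.57 (adjusted p = 0.000151), which is 8.73-fold. Cox7a2, its broadly expressed partner, was at 16.43 and 16.30 in the tubule, against 15.65, 16.03 and 16.24 elsewhere. Its groups did not overlap either, but the difference of 0.38 ± 0.15 was not called (adjusted p = 0.0831).

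Cox6a2 was at 9.97 and 9.06 in the proximal tubule, against 5.87, 7.84 and 9.51 over the other arrays. The renal corpuscle was next, with 7.87, 7.67, 9.51 and 9.08, so the groups overlapped although the difference of 1.63 ± 0.50 was called (adjusted p = 0.0228). Ndufa4l2 had 9.26 and 7.42 in the tubule, against 5.84, 6.87 and 8.35, and rose by 1.49 ± 0.45 (adjusted p = 0.0212) with one tubule array inside the range of the others. Again the renal corpuscle was the nearest component, at 6.85, 7.71, 8.35 and 8.04.

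The other 3 did not pass the test. Cox8c, a testis form, was lowest in the tubule among E15.5 arrays, at 9.26 in both, against 9.53, 10.06 and 10.61, and highest in the renal corpuscle with 10.57, 10.11, 10.54 and 10.61 (difference of tubule and others -0.81, adjusted p = 0.123). Cox6b2, also known from testis, was at 8.31 and 10.36 in the tubule (0.69, adjusted p = 0.429). Cox4i2, the form known from lung and from low oxygen, was at 7.68 and 6.46 (-0.28, adjusted p = 0.806). Markers of muscle and brown fat were looked at beside these isoforms. Of 10 striated muscle genes 1 rose in the tubule, Myh6, and their summed signal was 1628 and 2207 there, against 1541 to 1783 in the S-shaped body and 1964 to 4280 in the renal corpuscle. The brown fat gene Ucp1 was not among the genes tested. Of the 4 brown fat genes that were, limma called none, and their sum was 3876 and 5099 in the tubule. It was 2994 to 8125 in the ureteric tip, 6695 to 18380 in the medullary interstitium and 9404 to 13810 in the medullary collecting duct. The S-shaped body had 15158 to 22324 and the renal corpuscle 14147 to 36366. At E11.5 and E12.5 no array exceeded 1742, in the renal vesicle. The mean log2 value of the 4 genes was only 9.08 to 9.85 in the renal corpuscle, so few of them carried the sum there. What these markers mean for the isoforms was not tested.

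**Figure D3:**
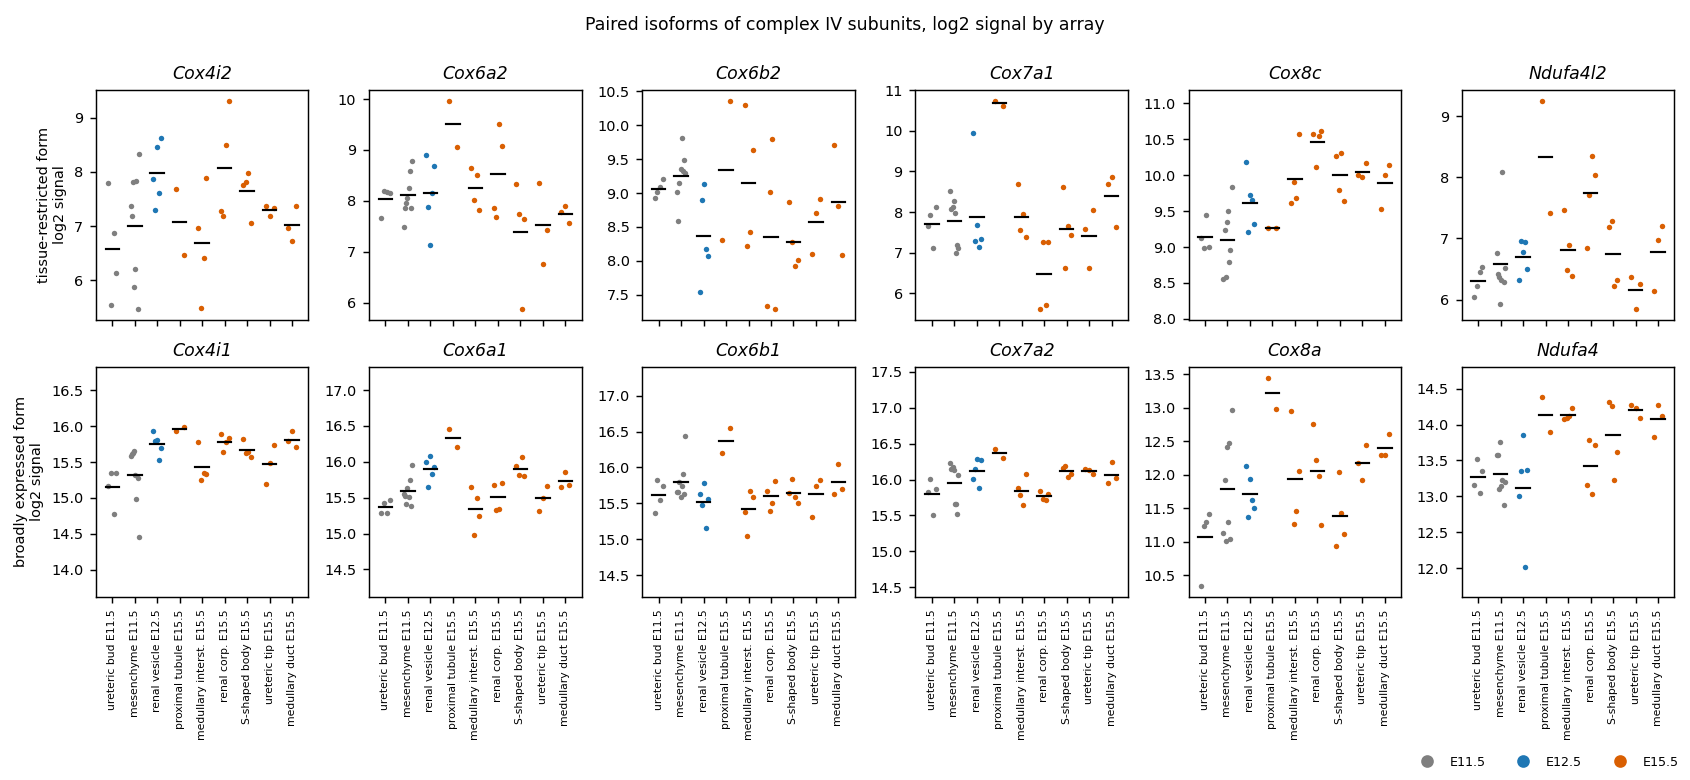
Log2 signal of 6 isoforms known from particular tissues (upper row) and their broadly expressed partners (lower row) in 37 arrays; points are arrays, bars component means, and vertical axes differ between panels, so levels are not to be compared between genes. Cox7a1 stands at 10.74 and 10.61 in the proximal tubule and at 9.94 in a single renal vesicle array, with all other arrays at 8.86 or lower, while Cox7a2 is at 16.43 and 16.30 in the tubule and at most 16.24 in the other E15.5 arrays.

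Start-site regions of 4 of the genes that were higher in both tubule arrays than in any other E15.5 array are shown, to place the muscle-type isoform beside broadly expressed subunits. RefSeq's promoter table (build GRCm38.p6), which gives 250 bases before and 50 after each start, held 74 of the 90 members. Each sequence runs 5′ to 3′ on the gene's strand, with capitals marking a motif. The motifs, searched on both strands, were GCGC, any 2 bases and again GCGC (NRF1), CCGGAAGT (ETS factors such as GABP), TCAAGGTCA (ERR receptors) and AAGATGGC (YY1), and none of the matches printed overlapped another. Cox7a1 lies at chr7:30183921-30184220 (+) and held no match. Cox6a1, at chr5:115348909-115349208 (-), held NRF1 matches beginning at -162 and -117 from the start. Uqcr11, at chr10:80406772-80407071 (-), held an ETS match at -66, and Ndufs7, at chr10:80249199-80249498 (+), a YY1 match at 24 past the start.
Cox7a1: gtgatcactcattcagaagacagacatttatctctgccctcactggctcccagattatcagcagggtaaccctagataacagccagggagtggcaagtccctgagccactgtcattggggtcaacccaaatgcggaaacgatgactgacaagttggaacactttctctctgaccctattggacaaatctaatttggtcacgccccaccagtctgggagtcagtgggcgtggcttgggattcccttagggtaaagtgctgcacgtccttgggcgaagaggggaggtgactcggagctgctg
Cox6a1: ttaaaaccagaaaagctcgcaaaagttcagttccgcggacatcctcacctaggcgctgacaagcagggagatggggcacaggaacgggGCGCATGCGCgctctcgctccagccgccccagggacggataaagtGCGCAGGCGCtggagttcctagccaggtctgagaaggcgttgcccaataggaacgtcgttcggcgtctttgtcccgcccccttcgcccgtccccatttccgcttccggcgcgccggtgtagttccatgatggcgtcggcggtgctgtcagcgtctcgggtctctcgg
Uqcr11: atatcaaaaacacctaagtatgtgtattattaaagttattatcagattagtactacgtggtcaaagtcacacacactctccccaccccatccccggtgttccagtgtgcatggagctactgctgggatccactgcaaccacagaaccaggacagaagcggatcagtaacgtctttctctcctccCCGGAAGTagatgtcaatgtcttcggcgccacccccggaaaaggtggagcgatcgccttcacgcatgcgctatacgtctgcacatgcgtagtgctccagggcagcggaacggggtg
Ndufs7: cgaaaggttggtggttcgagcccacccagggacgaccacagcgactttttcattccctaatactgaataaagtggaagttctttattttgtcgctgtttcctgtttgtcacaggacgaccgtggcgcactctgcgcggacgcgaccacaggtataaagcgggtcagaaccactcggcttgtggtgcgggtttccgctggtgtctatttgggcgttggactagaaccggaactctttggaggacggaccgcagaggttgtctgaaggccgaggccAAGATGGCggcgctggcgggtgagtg

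The NRF1 letters occurred in 19 of 74 members (25.7%), 12.8% of tested genes and 7% of all 27025 genes with an entry. The YY1 letters occurred in 10 members (13.5%), 4.44% of tested genes and 3.19% of all genes with an entry. ETS letters were found in 5 members (6.76%), against 7.46% of tested genes and 4.31% of all, and ERR letters in 2, Atp5g3 and Sdhd (2.7%), against 0.382% of tested genes. None of the 4 restricted isoforms with an entry held any of the 4. A match is a description of letters and not a site, and no match says only that these letters are not in this window.

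Against the S-shaped body, the stage before it in the nephron, the proximal tubule had 11 of 88 members changed, against 10.2% of all genes, a share near the background. The 10 that rose compare with 5.66% of all genes that rose. They were 2 accessory subunits of complex I, 2 of complex III, 2 of complex IV, 1 of complex V and 3 restricted isoforms, and the member that fell was Sdhd. The median log2 fold change was 0.43 for the members and 0.08 for all genes, and 70 of 88 members were above 0, against 53.3% of all genes. This comparison shares its tubule arrays with the preceding one, so the calls of both are given for what they add.

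Atp5md was called here and not against all other components. It was at 14.25 and 13.72 in the proximal tubule, against 11.72, 12.53, 12.09 and 12.27 in the S-shaped body, without overlap (1.84 ± 0.54, adjusted p = 0.0239). Cox8a, a small complex IV subunit, was at 13.45 and 12.98, against 10.94, 12.05, 11.43 and 11.11 (1.83 ± 0.50, adjusted p = 0.0152), although a second probe set gave -0.29. Cox7a1 had 10.74 and 10.61 in the tubule and 8.63, 6.61, 7.65 and 7.42 in the S-shaped body (3.10 ± 0.66, adjusted p = 0.00172). The remaining rises were Cox6a2 (2.12), Uqcr11 (1.77), Uqcr10 (1.66), Ndufa4l2 (1.58), Ndufa3 (1.58), Cox6b1 (0.73) and Ndufb11 (0.55), and Sdhd differed by -1.69. A second probe set of Sdhd gave 0.56, of opposite sign, and with the Actb ratio as a covariate Sdhd was no longer called. The Sdhd difference was -2.94 without tubule replicate 1 and -0.45 without replicate 2.

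How firmly these calls stand depends on few arrays and on the scaling. Without tubule replicate 1 the count against the other components was 6 and without replicate 2 it was 9, in place of 23. Against the S-shaped body the counts were 4 without tubule replicate 1, 7 without replicate 2 and 6 without S-shaped body replicate 4, in place of 11. With the deposited scaling alone 40 members rose and 3 fell against the other components, while 7.49% of all genes rose and 8% fell and their median was -0.10. With median centring 51 members rose and 2 fell, while 13.2% of all genes rose and 4.09% fell and their median was 0.30. All 23 kept their sign in both. With array weights Cox7a1 and Sdhd alone were called and with title date as a fixed term Sdhd alone, and against the S-shaped body the counts were 1 and 1, and 0 when only those groups were fitted. Leaving out the 2 libraries that stand apart, S-shaped body replicate 3 and renal corpuscle replicate 4, left 24 and 10 calls. Apart from those of the scalings, the counts in this paragraph are given without the share of all genes called. In the title date that held both tissues, with 1 tubule array that the fit also used, the members' median was 0.21 against the other components and 0.20 against the S-shaped body, beside 0.15 and 0.15 for all genes.

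**Figure D4:**
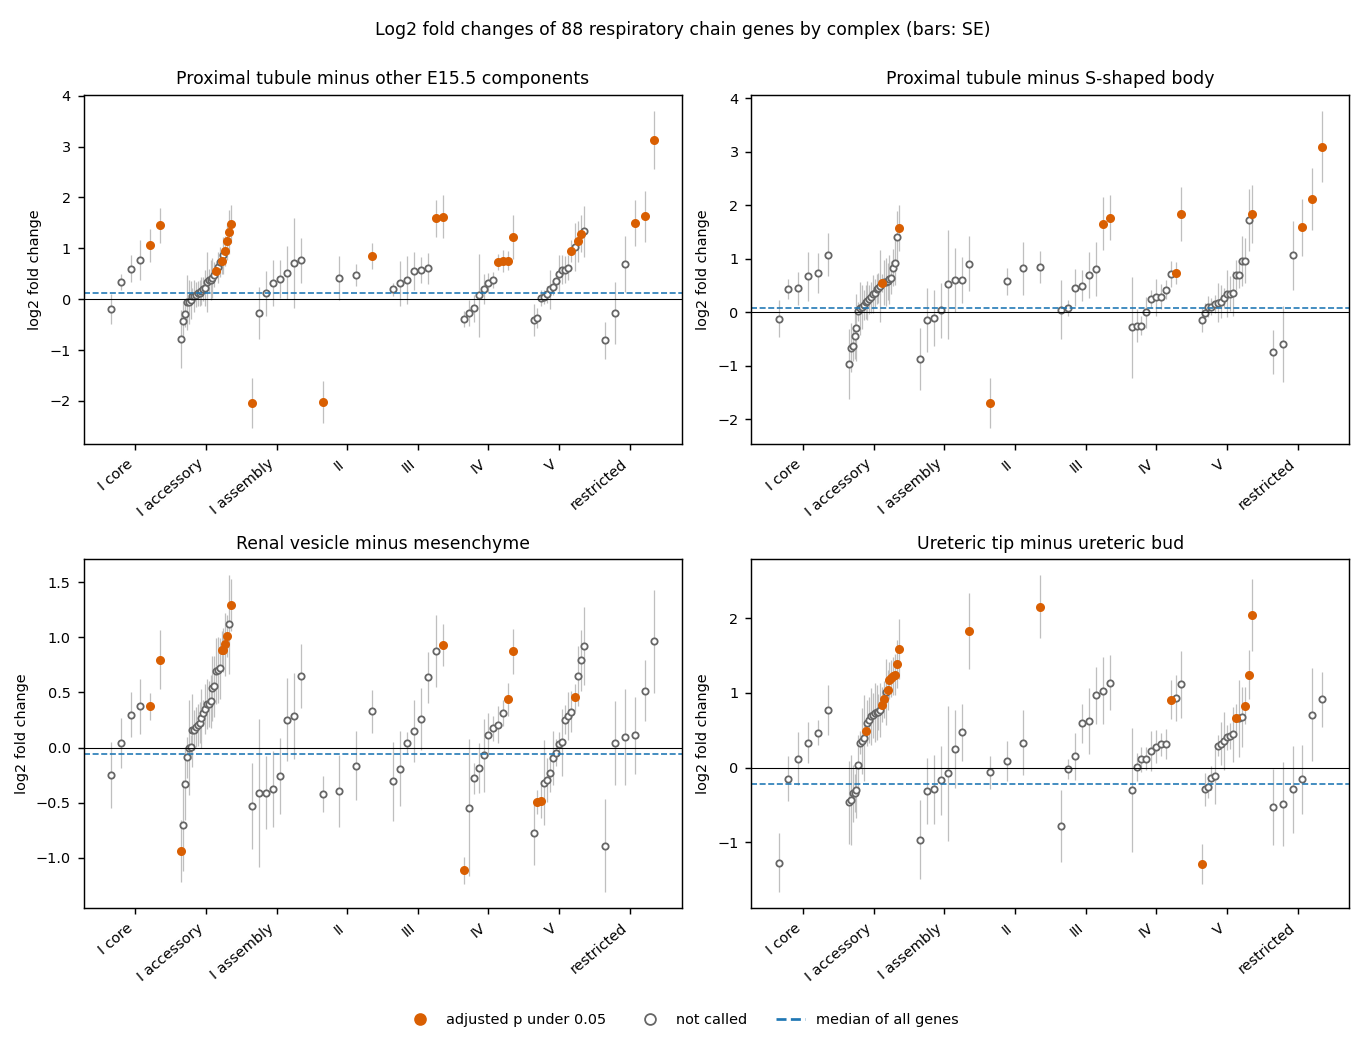
Log2 fold change (bars: SE) of 88 respiratory chain genes by group in 4 comparisons; filled points passed an adjusted p of 0.05, and the dashed line is the median of all 15709 genes. Of the members, 21 rose and 2 fell in the proximal tubule against other E15.5 components, 10 and 1 against the S-shaped body, 11 and 4 in the renal vesicle against the mesenchyme, and 17 and 1 in the ureteric tip against the bud, where with median centring none rose and 25 fell while 28.4% of all genes fell.

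At the start of nephron formation, the renal vesicle of E12.5 was compared with the mesenchyme of E11.5 from which it forms. Here 15 members changed (17%), against 14.2% of all genes, but the direction differed from the background: 11 rose and 4 fell, while over all genes 5.07% rose and 9.12% fell. The median log2 fold change was 0.19 for the members and -0.06 for all genes. Of complex I, 2 of 6 core subunits (Ndufs7 at 0.80 and Ndufv2 at 0.37) and 5 of 28 accessory subunits rose, and 1 accessory subunit fell. Markers of other cells fell in the same comparison: 4 of 6 of interstitium (median -2.38), 3 of 5 of macrophages, 3 of 6 of endothelium and 3 of 6 of erythroid cells, together with 3 of 8 stress response genes. Their part in the members' change was not tested.

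Ndufa12, an accessory subunit of the peripheral arm, was at 15.45, 15.02, 15.32, 14.94 and 14.85 in the renal vesicle, against a lowest, median and highest of 13.03, 14.00 and 14.84 in the 8 mesenchymes. The groups did not overlap and the difference was 1.29 ± 0.23 (adjusted p = 0.000256). Ndufb6, of the membrane arm, was at 14.23, 13.87, 14.37, 14.16 and 13.94, against 12.83, 13.04 and 13.92, and overlapped through mesenchyme replicate 8 alone (1.01 ± 0.19, adjusted p = 0.000400). The other accessory subunits that rose were Ndufa10 (0.94), Ndufb9 (0.89) and Ndufb5 (0.88). Of these, Ndufa10 and Ndufb9 reversed with the probe set of largest variance, to -2.72 and -0.40.

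Uqcrc2, a core protein of complex III, was at 15.82, 15.37, 15.38, 15.12 and 15.30 in the renal vesicle, against 13.91, 14.53 and 15.28 in the mesenchyme (0.93 ± 0.19, adjusted p = 0.00100). Cox5a, a complex IV subunit, was at 15.92, 15.63, 15.15, 15.47 and 15.43, above all mesenchymes, whose highest was 15.09 (0.87 ± 0.20, adjusted p = 0.00309). Cox4i1, the usual form of the largest nuclear subunit of complex IV, rose by 0.44 ± 0.15 (adjusted p = 0.0489), and Atp5h, of the stalk of ATP synthase, by 0.46 ± 0.12 (adjusted p = 0.0105).

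Cox7a2l moved the other way and by more than its spread. This protein is known for joining complexes III and IV into supercomplexes. It was at 14.28, 14.84, 14.64, 14.06 and 14.40 in the renal vesicle, against 15.24, 15.55 and 15.89 in the mesenchyme, with no overlap (-1.11 ± 0.12, adjusted p = 1.83e-07). With the probe set of largest variance the difference was -0.54 and was not called. The others that fell were Ndufa3 (-0.94), Atp5a1, the alpha subunit of ATP synthase (-0.49, and 2.46 with the probe set of largest variance), and Atp5j, coupling factor 6 (-0.49). The calls changed with the way the mesenchyme was obtained: against the 3 mesenchymes titled laser capture 3 members rose and 1 fell, with 2.58% of all genes called, and against the 4 titled dissection or collagenase 24 rose and 5 fell, with 13.6%. The members' median was 0.05 in one and 0.34 in the other. Without single arrays the count ran from 11 to 21.

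Between the S-shaped body of E15.5 and the renal vesicle, 2 members changed (2.27%), against 5.18% of all genes. Cox7a2l was at 15.20, 15.42, 15.20 and 15.45 in the S-shaped body, against 14.28, 14.84, 14.64, 14.06 and 14.40 in the renal vesicle (0.88 ± 0.14, adjusted p = 0.000190). It was thus lower in the renal vesicle than in both the mesenchyme before it and the S-shaped body after it. Sdhd was at 14.03, 14.57, 14.51 and 14.20 in the S-shaped body, against 12.52, 12.74, 12.13, 12.29 and 12.69 (1.86 ± 0.37, adjusted p = 0.00180), while its other probe set gave -0.24. With the Actb ratio as a covariate Sdhd was no longer called here. The largest difference not called was 1.28 for Ndufs5 (adjusted p = 0.141).

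Between the renal corpuscle, which holds the forming glomerulus, and the S-shaped body no member was called by limma, against 0.567% of all genes, and 13 of 88 had an unadjusted p under 0.05. None of 5 podocyte markers was called either. Their summed signal was 27635 to 255458 in the renal corpuscle, lowest in replicate 4, against 20380 to 199408 in the S-shaped body, highest in replicate 3. In Nphs1, a defining podocyte gene, renal corpuscle replicate 4 was at 7.37 and S-shaped body replicate 3 at 12.27, each at the level of the other component. The largest differences among members were -1.51 for Cox7c, -1.22 for Ndufaf1 and 1.14 for Cox6a2. Leaving out the libraries that stand apart, S-shaped body replicate 3 and renal corpuscle replicate 4, also gave none, and leaving out renal corpuscle replicate 2 gave 1. Between the ureteric tip and the medullary collecting duct, both of the collecting system at E15.5, again none was called by limma, against 0.344% of all genes, with 3 at an unadjusted p under 0.05. Cox7a1 differed by -0.97, Atp5b by -0.92 and Ndufaf2 by 0.91 there.

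At E11.5 the ureteric bud and the mesenchyme differed in 1 member (1.14%), against 8.45% of all genes. Ndufb11, of the membrane arm of complex I, lay between 14.94 and 15.21 in the 4 buds, against 15.21 to 15.89 in the 8 mesenchymes (-0.40 ± 0.12, adjusted p = 0.0241). Without ureteric bud replicate 1 or 3 no member was called, and 2 were without mesenchyme replicate 6, 7 or 8. The members' median was -0.16 with 24 of 88 above 0, and with median centring it was 0.00 with 44 above 0, while the median of all genes was 0.02 and 0.23. Larger differences not called were -0.71 for Cox8a, 0.65 for Ndufb1 and -0.58 for Ndufs7. Against the 3 mesenchymes titled laser capture 3 members fell, with 4.7% of all genes called, and against the 4 titled dissection or collagenase 2 fell, with 6.96%. Ndufb11 was not among those 2 (-0.35, adjusted p = 0.155).

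The ureteric tip of E15.5 descends from the bud, and the direction of this comparison turned with the scaling. After quantile normalization 18 members changed (20.5%), against 4.56% of all genes: 17 were higher in the tip, against 2.18% of all genes, and 1 was lower. With the deposited scaling alone 8 were higher and 1 lower, against 4.34% and 1.41% of all genes. With each array centred on its median none was higher and 25 were lower, against 1.52% and 28.4% of all genes, so the share of members lower was that of all genes, and 10 of the 18 had the opposite sign. The medians moved together, at 0.37 for members and -0.22 for all genes with quantile normalization, 0.47 and 0.16 with the deposited scaling, and -0.56 and -0.88 with median centring. Relative to the median of all genes, 71, 66 and 66 of 88 members lay above it under the 3 scalings.

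The genes that were higher after quantile normalization were mostly accessory subunits of complex I, 10 of 28, with 1 of 8 assembly factors, 1 of 4 complex II, 1 of 11 complex IV and 4 of 17 complex V genes, and no core subunit of complex I. Sdhd was at 14.68, 15.20 and 14.65 in the tip, against 12.36, 12.84, 13.06 and 12.51 in the bud (2.15 ± 0.42, adjusted p = 0.00154), but a second probe set gave -0.07. It was no longer called with the Actb ratio as a covariate. Atp5md was at 14.04, 12.29 and 13.25, against 10.78, 11.32, 11.21 and 11.30 (2.04 ± 0.48, adjusted p = 0.00823). Ndufa5 was at 14.43, 14.23 and 14.50, against 13.10, 13.13, 12.70 and 13.07 (1.39 ± 0.32, adjusted p = 0.00728). None of these groups overlapped. With median centring the same differences were 0.84, 0.94 and 0.15.

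Ndufaf4 (1.83), Ndufa6 (1.59) and Ndufa2 (1.24) behaved likewise, and came to 0.55, 0.32 and 0.05 with median centring. Atp5b, the catalytic beta subunit of ATP synthase, was lower in the tip under all 3 scalings, at 13.44, 13.66 and 13.93, against 14.87 to 15.03 in the 4 buds (-1.29 ± 0.27, adjusted p = 0.00297). It differed by -1.23 with the deposited scaling and -2.26 with median centring. Every bud title names dissection or collagenase and the tips were laser captured, so stage and collection cannot be told apart. The summed signal of 8 stress response genes was 15289 to 27796 in the tips, against 75984 to 125515 in the buds, and 2 of the 8 were called lower. Of 6 interstitium markers 5 were called higher in the tips, with sums of 25924 to 101901, against 1402 to 4388 in the buds, as were 3 of 7 mural and 2 of 6 nephron progenitor markers. The part of these cells and of stress in the result was not tested. With array weights 40 members were higher and 10 lower, with title date as a fixed term 2 were higher, and with only the 2 groups fitted 29 were higher and 4 lower. Without tip replicate 3 the count was 8, and it was 9 or 10 without tip replicate 2, bud replicate 1 or bud replicate 3. The share of all genes called is not given for these last settings, so their counts have no background beside them.

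**Figure D5:**
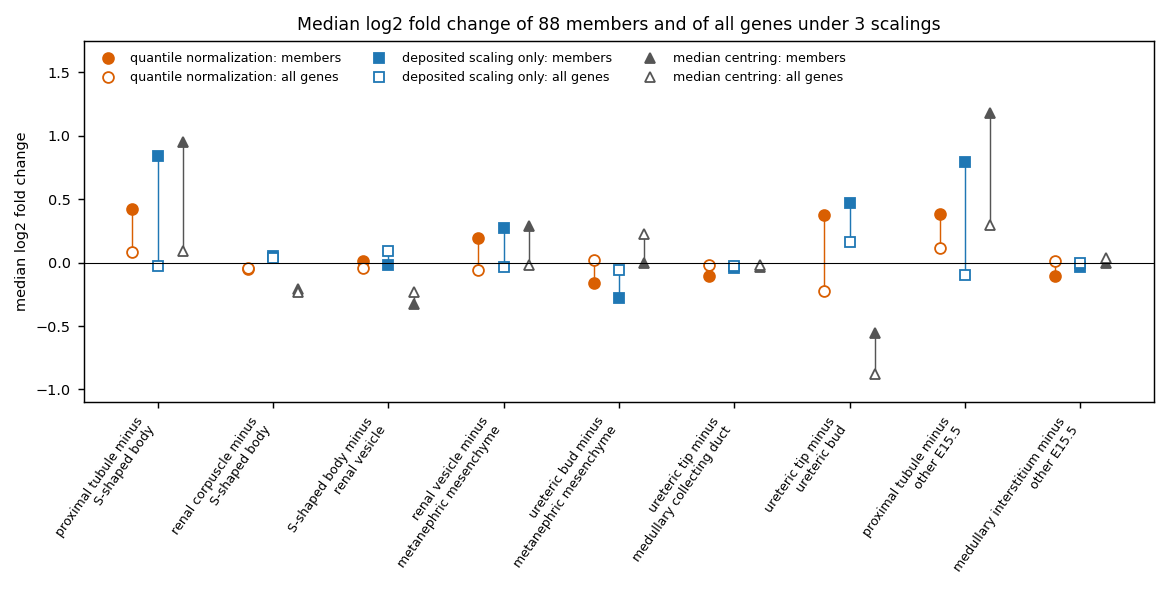
Median log2 fold change (vertical axis) of 88 respiratory chain genes (filled) and of all genes (open) in 9 comparisons under quantile normalization, the deposited scaling alone and median centring. Members lie above all genes in both proximal tubule comparisons under all 3 scalings (0.39, 0.80 and 1.18 against the other E15.5 components), while in the ureteric tip against the bud the members' median is 0.37, 0.47 and -0.56.

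In the medullary interstitium, the stroma between the collecting ducts, 3 members changed relative to the other 5 components of E15.5 (3.41%), against 6.85% of all genes. Uqcrh, the hinge protein of complex III, was at 12.04, 12.03, 12.32 and 12.81 there, against a lowest, median and highest of 9.74, 11.07 and 12.28 in the other 16 arrays (1.05 ± 0.33, adjusted p = 0.0477). Its groups overlapped through 1 array each of the ureteric tip, the S-shaped body, the medullary collecting duct and the proximal tubule. Atp5d (-0.68) and Cox6a1 (-0.45) fell. None of the 3 was called under the deposited scaling or median centring, and without replicate 2 of the interstitium no member was.

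Genes that serve the chain were counted in lists beside the members. In the proximal tubule against the other E15.5 components, 4 of 14 fatty acid oxidation genes rose, Eci1 (1.78), Acadm (1.30), Acadvl (1.28) and Hadhb (0.87), and none fell. Their list median of 0.76 compares with 0.11 for all genes, of which 9.45% rose and 6.66% fell. Of 15 citric acid cycle genes 1 rose, Idh3b (0.62), and 1 fell, Dld (-2.31), and of 12 glycolysis genes 1 rose, Tpi1 (0.83). Of 26 other assembly factors 4 rose, Sco2, Ecsit, Uqcc1 and Surf1, and 2 fell, Cox18 and Cox11. Among electron and metabolite carriers 2 of 9 rose, Etfdh (1.67) and cytochrome c1, Cyc1 (0.61), while cytochrome c itself, Cycs, differed by -0.41 (adjusted p = 0.370). Of 18 genes of the mitochondrial ribosome 2 rose, Mrpl37 and Mrps12.

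Regulators of mitochondrial genes were split. The nuclear receptor Esrra was at 11.33 and 11.31 in the proximal tubule and rose against the other components by 1.47 ± 0.42 (adjusted p = 0.0137). Nrf1 rose by 1.71, Gabpa fell by 1.39, and the coactivator Ppargc1a differed by -0.24 (adjusted p = 0.891). The other 7 of the 11 were not called.

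In the renal vesicle against the mesenchyme, the carrier Cycs rose by 1.498 ± 0.22 (adjusted p = 2.39e-05), 4 of 18 mitochondrial ribosome genes rose, and the mitochondrial RNA polymerase Polrmt rose by 1.84. In the same comparison 4 of 12 glycolysis genes fell, Pfkl (-2.21), Tpi1 (-1.70), Pkm (-0.83) and Aldoa (-0.64), and 5 of 14 fatty acid oxidation genes fell, Echs1 (-1.88) and Decr1 (-1.48) among them. Over all genes 5.07% rose and 9.12% fell there. Between the ureteric bud and the mesenchyme the glycolysis list gave 6 of 12 genes higher and none lower, Pfkl (1.45), Slc2a1 (1.42) and Pkm (1.30) foremost. Over all genes 4.25% were higher and 4.2% lower, and the respiratory chain members gave 1 call. The bud titles all name dissection or collagenase while those of the mesenchyme are mixed. The list was not counted by collection method or under the other scalings. In the ureteric tip against the bud 5 glycolysis genes were lower, led by Pfkl (-2.59), Pkm (-1.91) and Tpi1 (-1.51), beside Cycs at 1.02 ± 0.30 (adjusted p = 0.0396), all after quantile normalization. Of all genes 2.18% were higher and 2.38% lower in that comparison.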

How the data were processed

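RNA from 37 pools was measured on 1 Affymetrix array each. The authors' deposited values are linear signal intensity from GCOS, per the submitters' processing notes, whose version is not given in the sources used here; the 2% trimmed mean was 1500 on every array. No detection calls were used. Signals were increased by 34.62 (the 20th percentile), so differences of weak genes are understated, then log2 transformed and quantile normalized. Probe sets above the pooled median (7.89) in at least 2 arrays were kept, and the single-gene probe set of highest mean was used for each of 15709 genes. Symbols are those of RefSeq, matched by gene identifier, or of the platform table where RefSeq gave none. Atp5b and Atp5a1 are older names. Limma 3.58.1 in R 4.3.3 fitted 1 mean per component to all 37 arrays (trend, robust variances, 28 residual degrees of freedom), and p-values were adjusted over all genes by the method of Benjamini and Hochberg. The code was tested on simulated data. The number of arrays limits the precision.

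The members, lists and tests were chosen with earlier results of these data known. Named genes are the called members of largest fold in each comparison, the tissue-restricted isoforms and their partners, and the extremes of range in each complex. Other genes with values were named after these were seen. Alternatives were other offsets, scalings, filters and probe sets, array weights, fitting only the groups compared, title date, title number, collection method, 5′ to 3′ ratios and leaving out arrays.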

Additional observations from a re-analysis of the deposited data

Results flagged for a closer look

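Of 150 sets of 4 to 8 arrays of a component examined, 10 held an array far from the others by Dixon's test, where chance gives about 1 in 20. Metanephric mesenchyme replicate 8 gave 4 of them. Its complex II level was -0.80, with the other arrays at -0.29 to 0.03. Its Cox6b1 value was 16.43 (others 15.58 to 15.90), its Ndufs1 value 11.75 (others 13.77 to 14.21) and its Atp5b value 13.65 (others 14.80 to 15.26). In the same tissue, Ndufa4l2 was 8.09 in replicate 6 (others 5.93 to 6.77).

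In the ureteric bud, replicate 1 stood low for Cox6a2 at 7.65 (others 8.15 to 8.20) and Cox8a at 10.34 (others 11.24 to 11.41), and replicate 2 had a restricted isoform level of -0.48 (others at -0.27). Cox7a1 was 9.94 in renal vesicle replicate 1 (others 7.14 to 7.68), and Cox8c was 10.11 in renal corpuscle replicate 2 (others 10.54 to 10.61).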

How the results depend on the processing

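Counts of called members moved with the processing as follows. For most of these settings the share of all genes called is not given, so a change in count need not be particular to the members. Proximal tubule against the S-shaped body gave 11, and 32 with the deposited scaling, 35 with median centring, 1 with array weights, 0 when only those groups were fitted, 1 with title date as a fixed term and 7 with the Actb ratio as a covariate. Against the other E15.5 components it gave 23, and in the same order 43, 53, 2, 19, 1 and 12, with 15 at a log2 fold of at least 1. Ureteric tip against bud gave 18, and 9 with the deposited scaling, 50 with array weights, 33 with only those groups, 2 with date, 4 with the Actb ratio and 25, all lower, with median centring. Renal vesicle against mesenchyme gave 15, and 3 with the fold minimum, 8 with title number as a replicate block, 4 with laser-captured mesenchyme and 29 with the rest. Ureteric bud against mesenchyme gave 1, and 0 with either other scaling, the probe set of largest variance, the fold minimum, only those groups, date or the Gapdh ratio, 10 with array weights, 3 and 2 by collection and 2 without both libraries that stand apart. The interstitium gave 3, and 0 with either other scaling, the probe set of largest variance or date, and 1 with the fold minimum. S-shaped body against renal vesicle gave 2, and 1 with the fold minimum, only those groups or the Actb ratio; ureteric tip against collecting duct gave 0, and 3 with array weights. With title date as a fixed term the renal vesicle comparisons and any difference had no value. The title numbers did not pair the arrays (median correlation of deviations 0.0064 over 91 pairs of equal number and -0.0033 over 388 others). The cause of these changes was not tested. With the probe set of largest variance, Cox8a turned to -0.29 and -0.65 in the tubule comparisons, Ndufa3 to -0.26, and Ndufa10, Ndufb9 and Atp5a1 to -2.72, -0.40 and 2.46 in the renal vesicle. Leaving out single arrays gave 4 to 11, 6 to 23, 8 to 14, 11 to 21, 0 to 2, 0 to 7, 2 to 3 and 0 to 0 for these 8 comparisons in the order given, 0 to 1 for the renal corpuscle and 50 to 59 for any difference. Over the remaining alternatives the count for any difference stayed between 42 and 66, and named genes gave 589 results of the same direction and call, 175 no longer called and 6 reversed.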

Other observations

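Ndufb11, an accessory subunit of complex I, and Sdhd were called in 4 comparisons each, more than any other member, while Ndufa3 and Ndufb9 were called in 3. With the Actb ratio as a covariate Sdhd was called in none of its 4. Its means were lowest in the mesenchyme, bud, renal vesicle and proximal tubule, the components with the lowest Actb ratios. The part of the Actb ratio in this was not tested. Ndufb11 had a log2 difference of 0.56 in the proximal tubule against other E15.5 components, 0.55 against the S-shaped body, 0.49 in the ureteric tip against the bud and -0.40 in the bud against the mesenchyme, and the first pair share their tubule arrays.

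Cox7c, a small subunit of complex IV, had the widest spread of its complex. Its values were 11.32 and 7.90 in the proximal tubule against a lowest, median and highest of 5.87, 9.55 and 11.65 in the other E15.5 arrays, and no difference among the 9 components was called for it (adjusted p = 0.109 by the F test in limma).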
